A study of Mus musculus with 2 samples.

Results

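Striated duct cells line the larger intralobular ducts of the parotid gland, and 113 of the 8664 cells kept from the mouse parotid libraries described here were classed as such. The data are single-cell RNA-seq counts of unique molecular identifiers (UMIs, one for each captured RNA molecule) from dissociated parotid glands of wild-type C3H female mice. The study asked which cell populations the adult gland holds and how each looks long after radiation injury. One library held cells of control mice, which received 0 Gy, and the other held cells of irradiated (IR) mice. The IR mice had received 30 Gy to the head and neck as 6 Gy on each of 5 days at an age of 6 to 10 weeks, and the glands of both groups were taken 10 months later. Each library pooled the cells of 2 mice, so each group was 1 library and the difference between the groups has no replicate check. Every interval below is a 95% interval that covers counting error only, and no p-value is given.

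The control library held 5550 barcodes and 22707876 UMIs, and the IR library held 7793 barcodes and 23890757 UMIs. Barcodes with fewer than 200 detected genes (912 control, 649 IR) and then those with more than 5% of UMIs on mitochondrially encoded genes (1260 control, 1858 IR) were left out. After these filters the control library kept 3378 barcodes, at a median depth of 2907.5 UMIs. The IR library kept 5286, at a median depth of 2461.5 UMIs. A kept cell was classed as striated duct when Klk1 and Fxyd2 together gave at least 5 UMIs and at least 1% of its UMIs, when Dcpp1, Dcpp2 and Dcpp3, markers of intercalated ducts, gave less than 15%, and when it held no UMI of Ptprc, which encodes the leukocyte antigen CD45. The libraries shared 12 barcode sequences, of which 3 were among kept cells and 0 among the striated duct cells.

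The cells were selected on Klk1 and Fxyd2, and the rule found 91 in the control library and 22 in the IR library. The share of UMIs on Klk1 and Fxyd2 ranged from 1.06% to 27.9% in the control cells, with a median of 4.02%. In the IR cells it ranged from 1.09% to 21.4%, with a median of 3.83%. Of the cells just inside the limit, 10 control and 2 IR cells lay under 1.5%, and of the cells just outside it, 2 control and 26 IR cells lay between 0.5% and 1%, the highest at 0.770% and 0.912%. Both genes were detected in 82 control and 20 IR cells, Fxyd2 alone in 8 and 2, and Klk1 alone in 1 and 0. The cells were chosen by these values, which are given as a description.

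The label was checked with 3 striated duct markers that the rule did not use. These were Crisp3, which encodes a secreted cysteine-rich protein, Wfdc2, which encodes a secreted WAP-domain protein, and S100a1, which encodes a calcium-binding protein. The marker lists were chosen with earlier results of these data known, so the check is not independent of the data. At least 1 of the 3 was detected in 85 of the 91 control cells and in all 22 IR cells, and all 3 together were detected in 20 and 9 cells. Crisp3 was detected in 56 control and 17 IR cells, Wfdc2 in 47 and 16, and S100a1 in 59 and 13. With every cell thinned to 500 UMIs, Crisp3 was detected in 55.6% of control striated duct cells, compared with 0.687% of intercalated duct cells and 1.20% of B-cells, which served as the level that free RNA gives. In the IR library the same shares were 68.4%, 1.21% and 1.74%. S100a1 was detected in 53.2% of control and 49.7% of IR striated duct cells, against 0.338% and 0.363% of B-cells. Of 785 control B-cells, 10 were also in the Etv1-positive, 3 in the acinar and 2 in the intercalated duct class described below. Of 797 IR B-cells, 8 were also in the Etv1-positive and 3 in the acinar class. This reference was therefore not free of epithelial barcodes. The markers stood far above the level of free RNA, and the label was kept. The nuclear RNA Malat1, thinned alike, was detected in 36.1% (control) and 31.4% (IR) of striated duct cells. It was detected in 98.5% and 97.6% of B-cells and in 29.0% and 21.1% of intercalated duct cells. The striated duct cells were shallow, with medians of 727 UMIs (control) and 711.5 UMIs (IR; B-cells 2531 and 2175; intercalated duct cells 2438.5 and 5577.5), under the medians of their own libraries given above, and this depth limits what single cells can show. Crisp3 and Wfdc2 were among the 10 genes with the highest ratio over each of the other epithelial classes described below. That ranking comes from the same counts and is a description.

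Saliva made by acini is isotonic when it leaves them. Striated duct cells take back sodium and chloride with little water and add potassium and bicarbonate, a task powered by the sodium-potassium pump on a deeply folded basal membrane that is packed with mitochondria, which give the striations. In rodents the same cells release kallikreins and defence proteins into the saliva.

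Secreted proteins led the genes that set the striated duct cells apart in both libraries. The starts of 4 of their genes are shown because these RNAs were among the highest over the other classes and because the kallikrein copies share sequence. Crisp3 lies on mouse genome build GRCm38 at chr17:40221777-40242288 (minus strand). Klk1, tissue kallikrein, lies at chr7:44225360-44229618 (plus strand) near its paralogs Klk1b26 at chr7:44012168-44016968, Klk1b9 at chr7:43976061-43980376 and Klk1b11 at chr7:43995877-43999875. The 60 bases before the RefSeq transcript start (GRCm38.p6), given 5′ to 3′ on the gene's own strand with a TATA-like motif in capitals, read as follows. The Crisp3 window is chr17:40242289-40242348, and the Klk1b26, Klk1b9 and Klk1b11 windows are chr7:44012618-44012677, chr7:43976001-43976060 and chr7:43995817-43995876. The gene spans are those of GENCODE. For Klk1b26 RefSeq places the transcript start further downstream than GENCODE does, so this window lies inside the GENCODE span.
Crisp3: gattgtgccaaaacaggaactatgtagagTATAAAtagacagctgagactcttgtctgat
Klk1b26: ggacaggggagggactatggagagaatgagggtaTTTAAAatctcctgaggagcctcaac
Klk1b9: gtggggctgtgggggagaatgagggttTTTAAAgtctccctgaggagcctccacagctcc
Klk1b11: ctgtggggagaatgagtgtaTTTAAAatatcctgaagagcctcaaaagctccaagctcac
The letters TATAAA began 31 bases before the start of Crisp3, and TTTAAA began 26, 33 and 40 bases before the starts of Klk1b26, Klk1b9 and Klk1b11. TTTAAA was in 12 of the 13 Klk1b windows of this length. TATAAA was in 2.87% of 32851 such windows on the gene's strand (3.92% on either strand) and TTTAAA, which reads the same on both strands, in 2.79%. A match describes the sequence and is not a measured binding site. Over the last 300 bases of their transcripts, Klk1 was 83.6% identical to Klk1b26, 82.9% to Klk1b9 and 83% to Klk1b11. Klk1b9 and Klk1b11 were 87.3% identical to each other, and Klk1b26 was 77.3% identical to Klk1b9 and 78.3% to Klk1b11. Whether reads of 1 copy were counted for another was not tested, so counts of single kallikrein copies carry that limit.

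Compared with the other epithelial classes of the gland, striated duct cells held high levels of Crisp3, Wfdc2, Klk1b kallikreins and genes of mitochondrial respiration. The classes were intercalated duct cells (Dcpp1 to Dcpp3 at 15% of UMIs or more; 68 control and 106 IR cells), Etv1-positive cells (291 and 264) and acinar cells (acinar secretory RNAs at 50% of UMIs or more; 338 and 315). For each class and library, UMIs were added up over cells and scaled to 1000000 (CPM, counts per that many UMIs). A set of 15 genes was among the 20 with the highest ratio over each of these classes, taking the lower of both libraries: Crisp3, Fxyd2, Klk1, Klk1b11, Klk1b26, Klk1b9, Krt7, Ldhb, Oxct1, Phyh, Prdx5, S100a1, Slc25a4, Tsc22d1 and Wfdc2. The classes were cut from the same counts, so these ratios are a description. This ranking used CPM over all genes. Because secretory RNAs fill most of the RNA of acinar and Etv1-positive cells (72.4% and 63.5% of UMIs in the control library, against 22.7% in striated duct cells), the ratios between classes given below were taken after removing secretory, Dcpp, mitochondrial, haemoglobin and Gm42418 RNAs from every class, while levels are CPM over all genes. On this scale 41.1% of the 248 genes compared were at least 2-fold higher than in intercalated duct cells in both libraries, 48.4% over Etv1-positive and 49.2% over acinar cells. Without removing those RNAs the shares were 80.8% of 266 genes, 74.4% and 88.7%. Each gene compared had at least 50 UMIs in striated duct cells, so a high level there helped a gene to be compared. Klk1 chose the cells, so its own excess is no result. The other 3 kallikrein genes with at least 50 UMIs, Klk1b26, Klk1b9 and Klk1b11, share sequence with it and were at least 2-fold higher over each class. Of 4 duct innate defence genes with that many UMIs, Crisp3 and Wfdc2 were at least 2-fold higher in both libraries over each class, and Crisp1 was at most 0.5-fold in both over each class.

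Crisp3 stood at 5530 CPM in control and 21285 CPM in IR striated duct cells, and at 7.84 and 51.5 CPM in intercalated duct cells, where it rested on 5 and 40 UMIs. On the scale without the abundant RNAs this was a ratio of 259.7 (control) and 153 (IR). Wfdc2 stood at 1538 and 2924 CPM, with ratios of 72.2 and 31.2 over intercalated duct cells, and S100a1 at 1819 and 1678 CPM, with ratios of 17.1 and 13.4. Krt7, a keratin of simple ductal epithelium, stood at 745 and 815 CPM. Its ratios of 58.3 and 39.2 rested on 2 and 6 UMIs in intercalated duct cells. The keratins Krt8 and Krt18 were below 1 over intercalated duct cells, at 0.676 and 0.485 for Krt8 and 0.786 and 0.897 for Krt18. Thinned to 500 UMIs, Krt7 was detected in 29.0% of control striated duct cells, 0.025% of intercalated duct cells and 0.05% of B-cells. In intercalated duct cells Crisp3 and Krt7 were thus at or below their share in B-cells.

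Several of the 15 genes encode metabolic enzymes and carriers. Ldhb, the lactate dehydrogenase subunit that favours lactate use, stood at 1514 CPM in control and 1582 CPM in IR cells, with ratios of 50.8 and 28.5 over intercalated duct cells on that scale. Slc25a4, the ADP/ATP carrier of the inner mitochondrial membrane, stood at 1257 and 1007 CPM, with ratios of 14.8 and 12.1. Oxct1, which starts the use of ketone bodies, stood at 977 and 1007 CPM, with ratios of 11.5 and 13.8. The peroxisomal enzyme Phyh and the peroxiredoxin Prdx5 stood at 598 and 527 CPM and at 1404 and 1246 CPM, with ratios of 12.8 and 10.9 for Phyh and 19.4 and 10.6 for Prdx5.

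The nuclear genes of the respiratory chain were high as a group. Of 80 nuclear respiratory genes listed, 56 had at least 50 UMIs. These UMIs were counted in striated duct cells, so a high level there helped a gene to pass. The counts over other classes are therefore a description. Without the abundant RNAs, 53 of the 56 were at least 2-fold higher than in intercalated duct cells in both libraries. Of all 248 genes compared, which passed the same cut, 41.1% were. The median ratio of the 56 genes was 4.71 (control) and 4.75 (IR). Over Etv1-positive cells it was 6.0 and 4.88 (54 of 56 genes, 48.4% of all genes), and over acinar cells 5.58 and 4.38 (53 of 56, 49.2%). Of 22 genes listed for creatine and energy buffering 7 had that many UMIs, and all 7 were at least 2-fold higher over each class. Their medians over intercalated duct cells were 8.22 and 8.15. Among them Ckmt1, the mitochondrial creatine kinase, stood at 952 and 959 CPM. On that scale none of 65 cytosolic ribosomal protein genes was at least 2-fold higher in both libraries over any of the 3 classes. Their median over intercalated duct cells was 0.915 and 1.0. On CPM over all genes 57, 35 and 58 of the 65 were, over intercalated duct, Etv1-positive and acinar cells. This stood beside 80.8%, 74.4% and 88.7% of all 266 genes.

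The mitochondrial genome encodes the remaining respiratory subunits, and its RNA was low in the same cells when set against that of the nuclear genes. In control striated duct cells the mitochondrially encoded genes summed to 4200 CPM, 0.0555 times the nuclear respiratory sum of 75678 CPM, and in IR cells to 5561 CPM, 0.0816 times. In intercalated duct cells the ratio was 0.935 and 0.952, in Etv1-positive cells 1.25 and 1.44, and in acinar cells 0.233 and 0.390. The striated duct cells thus had the lowest ratio of these classes in both libraries. This value depends on the 5% limit that chose the cells: barcodes that met the Klk1 and Fxyd2 rule but lay above the limit had ratios of 3.53 and 3.65. Above the limit the ratios of the other classes were higher too, at 22.4 and 4.30 in intercalated duct, 18.1 and 17.4 in Etv1-positive and 13.3 and 18.2 in acinar barcodes.

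**Figure D1:**
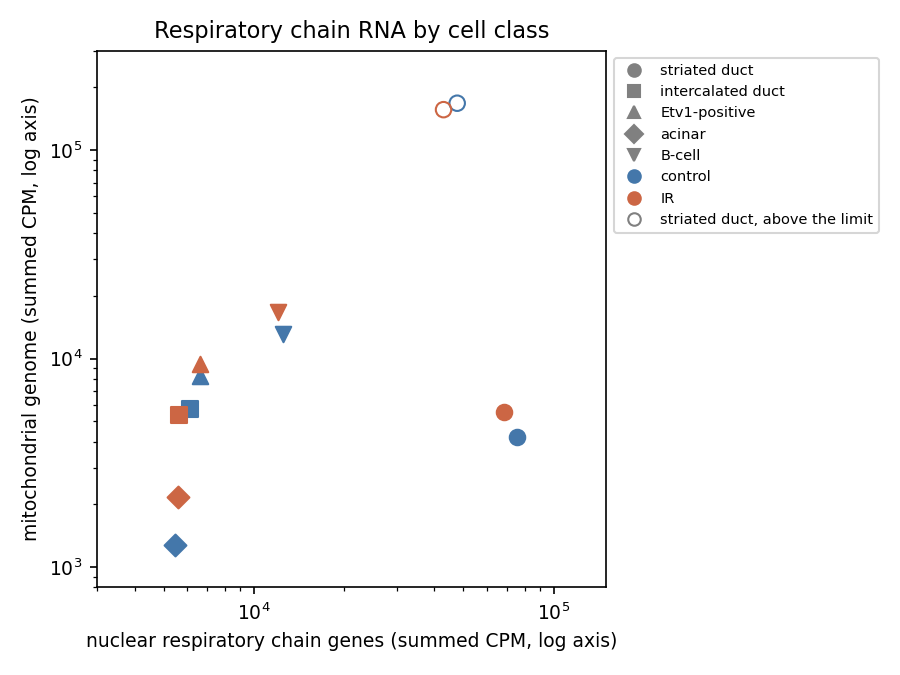
Summed CPM of nuclear respiratory chain genes (x axis, log) against summed CPM of the mitochondrial genome (y axis, log), 1 point for each cell class and library, with open circles for barcodes that met the striated duct rule but lay above the 5% mitochondrial limit. The kept striated duct cells sit far to the right at 75678 (control) and 68169 CPM (IR) with 4200 and 5561 mitochondrial CPM, and the open circles lie at 168066 and 156527 mitochondrial CPM.

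The share of striated duct cells was lower in the IR than in the control library. They made up 91 of 3378 control cells (2.69%, exact Clopper-Pearson interval 2.17 to 3.30%) and 22 of 5286 IR cells (0.416%, 0.261 to 0.629%), a ratio of 0.154 (0.0923 to 0.248). Among cells without Ptprc the shares were 5.38% and 1.09%, and among the 4 epithelial classes 11.5% and 3.11%, a ratio of 0.269 (0.161 to 0.433). Of all cells of both duct classes, 57.2% (49.2 to 65.0%) were striated in the control and 17.2% (11.1 to 24.9%) in the IR library. Intercalated duct cells made up 2.01% of kept cells in each library (ratio 0.996, 0.728 to 1.37), Etv1-positive cells 8.61% and 4.99%, and acinar cells 10.0% and 5.96%.

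The mitochondrial limit removed a different share of the striated duct candidates from each library. Without the limit 126 control and 55 IR barcodes met the rule, and the limit took 35 of the 126 (27.8%, 20.2 to 36.5%) and 33 of the 55 (60%, 45.9 to 73.0%). It took 11.7% of intercalated duct candidates in each library, 28.5% of Etv1-positive candidates in each, 7.40% and 3.67% of acinar and 29.7% and 36.7% of B-cell candidates. With the limit at 10%, 95 control and 30 IR cells remained and the ratio of shares was 0.207, and at 20% it was 103 and 46 cells and 0.288. With no limit the ratio was 0.283 (0.203 to 0.392). Among barcodes above the limit alone, candidates made up 35 of 1260 control (2.78%) and 33 of 1858 IR barcodes (1.78%), a ratio of 0.639 (0.385 to 1.06), whose interval includes 1. The limit on Klk1 and Fxyd2 also bore more on the IR library. At 0.5% of UMIs, a limit chosen after the values were seen, 93 control cells (2.75%) and 48 IR cells (0.908%) would be counted, a ratio of 0.330. The 26 IR cells so added had a median of 2340.5 UMIs, and each held RNA of Crisp3, Wfdc2 or S100a1 (Crisp3 in 24, Wfdc2 in 20, S100a1 in 8). Their Crisp3 level was 1326 CPM, against 21285 CPM in the kept IR cells, and the parotid secretory RNA Bpifa2 made up 37.1% of their UMIs and Dcpp RNA 8.61%, against 8.69% and 0.532% in the kept cells. The 26 added cells held 55802 UMIs and the 22 kept IR cells 20860. Of the 26, 3 were in the Etv1-positive and 5 in the acinar class described above. IR values at the 0.5% limit given below thus rest mostly on the added cells. A lower number of striated duct cells in the gland cannot be told apart from a lower number that came through preparation and these limits.

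**Figure D2:**
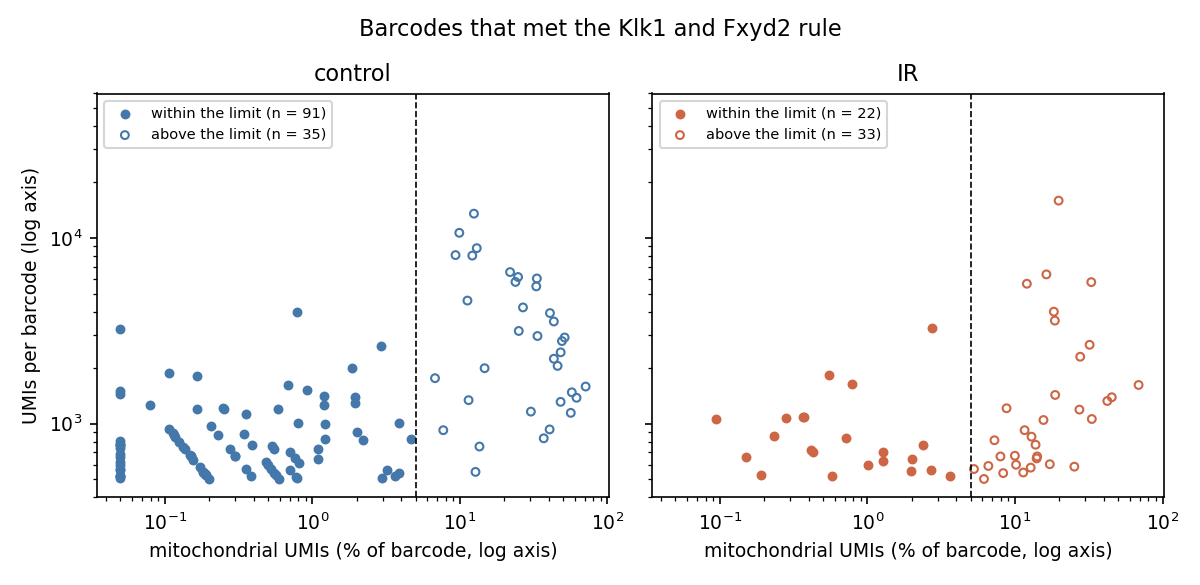
Each point is a barcode that met the Klk1 and Fxyd2 rule, with its percentage of mitochondrial UMIs (x axis, log; barcodes without such UMIs are drawn at the left end) and its UMIs (y axis, log), in the control and the IR library; the dashed line is the 5% limit. To the left of the line lie 91 control and 22 IR cells, and to the right 35 and 33 barcodes, with a median of 2783 UMIs (control) and 921 UMIs (IR).

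The levels of most genes measured in IR and control striated duct cells lay within 2-fold of each other. The cells gave 81913 control and 20860 IR UMIs over 7579 detected genes, and 266 genes had at least 50 UMIs. Of these, 20 were at least 2-fold higher in IR cells (7.52%) and 18 at most 0.5-fold (6.77%), with a median ratio of 1.05 and quartiles of 0.813 and 1.37. Crisp3, Krt18 and the early genes Atf3, Jun, Fos, Junb and Jund were among the former. Haemoglobins, the acinar secretory RNAs Smr3a and Car6, Gm42418 and Mt2 were among the latter. The split depends on scaling: it was 11 higher and 27 lower without the abundant RNAs, 14 and 21 with trimmed mean of M-values (TMM) factors from these 266 genes, and 1 and 86 with TMM factors from all genes, which shift the log2 ratios by -0.25, -0.10 and -0.80. Without the cell of each library that held most UMIs of a gene, the split was 7 higher and 25 lower. With the 0.5% limit on Klk1 and Fxyd2 it was 12 higher and 113 lower of 319 genes, with a median ratio of 0.683, and of the 20 higher genes only the mitochondrial RNA mt-Rnr1 was shared.

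**Figure D3:**
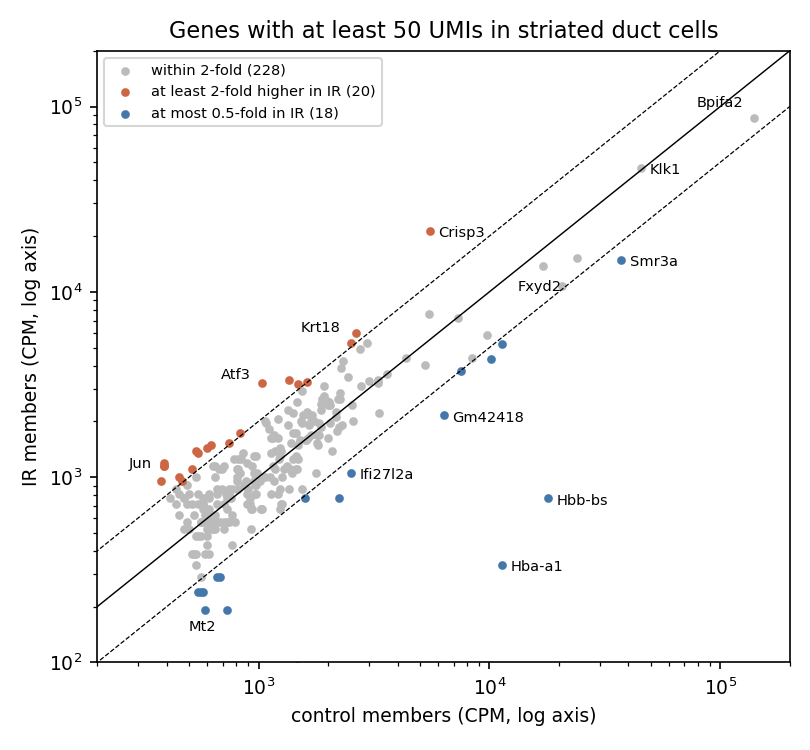
CPM of each of the 266 genes with at least 50 UMIs in control (x axis, log) and IR (y axis, log) striated duct cells; the solid line marks equal levels and the dashed lines 2-fold. Colour marks the 20 genes at least 2-fold higher and the 18 at most 0.5-fold in IR cells; Crisp3 lies above the upper line at 5530 and 21285 CPM, Klk1 on the line of equality, and Hba-a1 and Hbb-bs at the bottom.

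Klk1 and Fxyd2, which chose the cells, stood at 45451 and 46548 CPM and at 17006 and 13711 CPM in control and IR cells. S100a1, which did not choose them, stood at 1819 and 1678 CPM, a ratio of 0.922 (0.619 to 1.34), which was 0.334 (0.233 to 0.468) with the 0.5% limit on Klk1 and Fxyd2. The 3 Klk1b genes with at least 50 UMIs had ratios above 1, as did 150 of all 266 genes (56.4%). Without the abundant RNAs 2 of the 3 and 98 of the 266 genes were above 1, and with TMM factors from all genes 0 of the 3 and 33 of the 266. The 13 Klk1b paralogs together summed to 4090 CPM in control and 5129 CPM in IR cells, a ratio of 1.25 (0.999 to 1.56), which was 0.441 (0.359 to 0.540) with the 0.5% limit on Klk1 and Fxyd2. Klk1b26 alone was 1343 and 2301 CPM, a ratio of 1.71 (1.19 to 2.43). Whether it shares reads with its paralogs was not tested. Without the mitochondrial limit its log2 ratio was 1.90, where 1 IR barcode above the limit held 269 of its UMIs.

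Crisp3 had the highest ratio of all 266 genes. It gave 453 UMIs in 56 of the 91 control cells and 444 UMIs in 17 of the 22 IR cells, which is 5530 and 21285 CPM and a ratio of 3.85 (3.37 to 4.4). The cells overlapped: the median control cell held 1 Crisp3 UMI and the median IR cell 4, and the highest cells held 47 and 91. At least 10 UMIs were found in 15 control and 8 IR cells, and the top 3 cells held 27.8% of control and 58.1% of IR Crisp3 UMIs. Without the top cell of each library the ratio was 3.41. The ratio stayed at or above 2-fold under 14 of 15 other settings, with log2 ratios from 1.14 to 2.06 (main value 1.94). Leaving out high doublet scores, among these settings, removed 0 striated duct cells, so its value equals the main value. The exception was the 0.5% limit on Klk1 and Fxyd2, where 93 control and 48 IR cells held 5350 and 6757 CPM, a ratio of 1.26 (1.11 to 1.44). Crisp3 was also higher in the IR library in other classes at far lower levels, with ratios of 6.57 in intercalated duct, 3.24 in Etv1-positive and 4.29 in acinar cells, and 1.20 (0.830 to 1.75) in B-cells. The barcodes above the mitochondrial limit, which the rule did not keep, gave 6585 CPM (control) and 18312 CPM (IR), a ratio of 2.78.

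The other duct defence genes had ratios on either side of 1, which depended on the limits. Wfdc2 gave 126 and 61 UMIs, 1538 and 2924 CPM, a ratio of 1.90 (1.38 to 2.60), while its ratio was 1.0 above the mitochondrial limit and 0.903 (0.689 to 1.18) with the 0.5% limit on Klk1 and Fxyd2. Crisp1, a paralog of Crisp3, gave 93 and 17 UMIs and a ratio of 0.718 (0.401 to 1.21). Its log2 ratio of -0.48 turned to 0.49 with the 0.5% limit and to 0.07 without a mitochondrial limit. Cst3, the protease inhibitor cystatin C, gave 44 and 21 UMIs and a ratio of 1.87 (1.06 to 3.22), and its log2 ratio of 0.91 was 0.15 at the 10% mitochondrial limit, 0.12 at 20% and 0.23 without one. Of 26 genes listed for duct innate defence, 16 had a UMI and these 4 had enough for a ratio, 1 of them at least 2-fold higher, beside 7.52% of all 266 genes. The list summed to 9779 CPM in control and 27852 CPM in IR cells, most of it Crisp3. The ratio of the sums was 2.85 (2.56 to 3.17), and 1.37 (1.24 to 1.5) with the 0.5% limit.

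Ion transport RNAs were sparse at this depth. Atp1b1, the beta subunit of the sodium-potassium pump, gave 67 UMIs in control and 26 in IR cells. Its ratio was 1.52 (0.930 to 2.43), and it was below 1 with TMM factors from all genes, at the 10% mitochondrial limit (log2 ratio -0.13) and with the 0.5% limit on Klk1 and Fxyd2 (-0.09). Of 18 genes listed for sodium and potassium transport 13 had a UMI. Scnn1b, a subunit of the epithelial sodium channel that takes up luminal sodium, gave 5 UMIs in each library, while Scnn1a, Scnn1g, the sodium-hydrogen exchanger Slc9a3 and the potassium channel Kcnma1 gave 0 in both, so that none was detectable above 3 UMIs of 81913 and 20860. The chloride channel gene Cftr gave 1 and 0 UMIs. Atp6v0d2, a subunit of the proton pump found in acid-secreting and intercalated-type cells, gave 19 UMIs in 16 control cells and 10 in 5 IR cells. Thinned to 500 UMIs it was detected in 10.7% and 13.9% of striated duct cells and in 0% of control intercalated duct cells and B-cells.

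Transcription factors were sparser still, and none of 23 listed reached 50 UMIs. Tfcp2l1, which is known for its role in ducts of kidney and salivary gland, gave 40 UMIs in 24 control cells and 9 in 6 IR cells. It was detected after thinning in 17.0% and 13.7% of striated duct cells, compared with 3.44% of control intercalated duct cells and 0.0770% of control B-cells. Esrra, a nuclear receptor that drives genes of mitochondrial respiration, was seen in 11 and 3 cells, Ehf in 10 and 2 and Barx2 in 14 and 1. Foxi1, the master regulator of ionocytes, gave 2 UMIs in 1 control cell and 0 in IR cells.

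The nuclear respiratory genes differed little between IR and control striated duct cells at the 5% mitochondrial and 1% marker limits. They summed to 75678 CPM in control and 68169 CPM in IR cells, a ratio of 0.901 (0.850 to 0.954). With the 0.5% limit on Klk1 and Fxyd2 the sums were 74197 and 30419 CPM, a ratio of 0.410 (0.391 to 0.430). Of the 56 genes with enough UMIs 1 was at least 2-fold higher and 3 at most 0.5-fold, beside 7.52% and 6.77% of all 266 genes. Their median ratio was 0.892 with 38 below 1, beside a median of 1.05 and 116 below 1 over all 266 genes. The median was 0.952 for 20 complex I genes, 0.845 for 9 genes of complex III and cytochrome c, 0.857 for 10 complex IV genes and 0.875 for 16 ATP synthase genes. With TMM factors from all genes these medians were 0.545, 0.484, 0.491 and 0.501, beside 0.599 over all 266 genes. Cox7a2l, which helps to join complexes III and IV, gave 37 and 21 UMIs and a ratio of 2.23, and with the 0.5% limit its log2 ratio turned from 1.16 to -0.33. The complex I genes Ndufa2 and Ndufs6 gave 47 and 5 and 54 and 6 UMIs (ratios 0.418, 0.130 to 1.05, and 0.436), and the complex IV gene Cox5b gave 130 and 16 (0.483, 0.268 to 0.815). With the 0.5% limit the log2 ratio was -1.80 for Ndufs6 and -2.14 for Cox5b. Ndufa2 was also lower in the IR library in intercalated duct cells (0.645), Etv1-positive cells (0.596) and B-cells (0.682), and stood at 0.984 (0.780 to 1.24) in acinar cells. The 7 genes of creatine and energy buffering had a median ratio of 1.01, with Mdh2, the mitochondrial malate dehydrogenase, at 2.15. With the 0.5% limit the log2 ratio of Mdh2 was -0.29, that of Ckmt1 -1.48 and that of Slc25a4 -1.80, and the list's summed ratio went from 1.06 (0.924 to 1.22) to 0.416 (0.368 to 0.470).

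Immediate early genes, which are switched on within minutes of many stimuli including tissue dissociation, stood higher in the kept IR cells. All 5 of the 19 listed genes that had 50 UMIs were at least 2-fold higher, beside 7.52% of all 266 genes. The 50 UMIs were counted over both libraries together. A high IR level thus helped a gene to pass, as with Jun (32 control and 24 IR UMIs), so the count is a description. Their median ratio was 2.44, and the list summed to 5396 CPM in control and 14621 CPM in IR cells. Atf3, a stress-induced repressor, gave 85 UMIs in 36 control cells and 67 in 7 IR cells, a ratio of 3.10 (2.21 to 4.31). Jun gave 32 UMIs in 22 control cells and 24 in 6 IR cells, a ratio of 2.95 (1.66 to 5.16). Fos and Junb had ratios of 2.44 (1.47 to 4.0) and 2.40 (1.47 to 3.86), and Jund 2.08. The RNA was concentrated in few cells, since the top 3 held 59.7% of the list's UMIs in the IR library and 18.3% in the control. The median cell held 3 such UMIs in either library, and 79 of the 91 control cells and 16 of the 22 IR cells held any. Without the cell of each library that held most, the sum had a ratio of 2.23, Atf3 2.12 and Jun 2.24, while Fos was 1.81, Junb 1.92 and Jund 1.72. With TMM factors from all genes 0 of the 5 were at least 2-fold higher, with a median ratio of 1.40. Of all 266 genes 1 was at least 2-fold higher on that scale, with a median ratio of 0.599. Btg2, an early gene that p53 also induces, was 2.59 (1.56 to 4.23), and it was the only one of 11 detected p53 and senescence genes with 50 UMIs. Cdkn1a, the classic p53 target, gave 3 and 1 UMIs.

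These ratios depended on the limits that chose the cells. The sum of the immediate early genes had a ratio of 2.71 (2.33 to 3.14) at 5%, 1.54 (1.35 to 1.76) at 10%, 0.886 (0.804 to 0.975) at 20% and 0.973 (0.888 to 1.06) without a limit. Atf3 was 0.857 at 20% and 0.907 without a limit, and Jun was 0.704 and 0.725. With the 0.5% limit on Klk1 and Fxyd2, the sum was 1.31 (1.15 to 1.48), Atf3 1.16 (0.850 to 1.57) and Jun 1.43 (0.893 to 2.31). Krt18 went from 2.13 to 1.04 at a 20% mitochondrial limit and 1.10 without one, and to 0.747 (0.598 to 0.930) with the 0.5% limit. Among the barcodes above the limit the immediate early sum was 9240 CPM (control) and 5369 CPM (IR). Crisp3 was above 2 under each mitochondrial limit, at 2.50 (2.25 to 2.79) with a 10% limit, 3.07 (2.83 to 3.32) with 20% and 3.08 (2.86 to 3.31) without one. Of the 20 genes at least 2-fold higher, only Crisp3 was also so without the limit, and of the 18 at most 0.5-fold, 7 were.

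**Figure D4:**
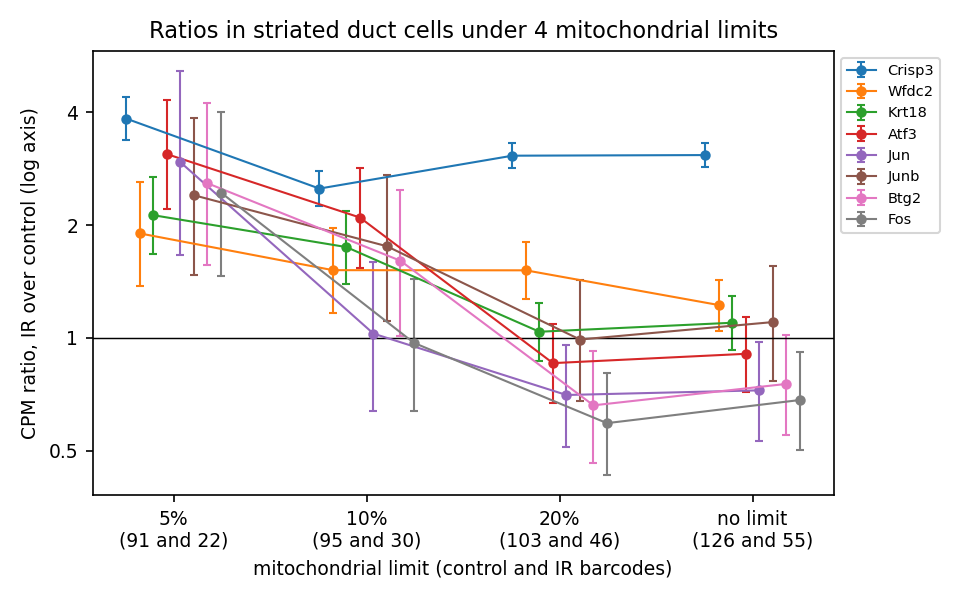
Ratio of IR over control CPM (y axis, log) with its 95% interval for 8 genes in barcodes that met the Klk1 and Fxyd2 rule, under mitochondrial limits of 5%, 10% and 20% and with none (x axis, with the number of control and IR barcodes). Crisp3 stays between 2.50 and 3.85, while Atf3, Jun, Btg2 and Fos fall from above 2 to below 1 at 20%.

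Krt18, Krt8, Actb, Tmsb4x and H2-K1 had ratios above 1 at the 5% mitochondrial limit. Of the listed genes with 50 UMIs, 1 of 3 keratins, 0 of 4 actin and 0 of 2 MHC class I genes were at least 2-fold higher. This stood beside 7.52% of all 266 genes. The junction gene Epcam had a ratio of 0.854. Krt18 and Krt8, the keratin pair of simple epithelia, gave 205 and 88 UMIs in control and 111 and 41 in IR cells, ratios of 2.13 (1.67 to 2.69) and 1.83 (1.23 to 2.68). Krt7 was 1.09 (0.599 to 1.90). Actb, beta-actin, was 1.70 (1.29 to 2.22) and the actin-binding thymosin gene Tmsb4x 1.62 (1.19 to 2.17), and all 4 actin genes with 50 UMIs were above 1, where 56.4% of all 266 genes were. At a 20% limit the log2 ratio was 0.14 for Krt8 (0.87 at 5%) and -0.003 for Actb (0.77 at 5%), and that of Tmsb4x was 0.038 without the top cell of each library (0.69 with it). With the 0.5% limit on Klk1 and Fxyd2 it was -0.42 for both Krt18 and Krt8. Krt7 was below 1 with that limit (log2 ratio -1.26), at a 20% mitochondrial limit and without the abundant RNAs. With TMM factors from all genes, Krt7 and 3 of the 4 actin genes were below 1, beside 233 of all 266 genes. Krt18 was also higher in the IR library in intercalated duct cells, with a ratio of 1.88. H2-K1, an MHC class I heavy chain that displays peptides to T-cells, was 1.78 (1.05 to 2.93), and its log2 ratio was -0.28 without the deepest 10% of cells, -0.10 without the 3 cells that held RNA of another cell type and -0.18 without the top cell of each library.

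Ribosomal protein genes had ratios on both sides of 1. The 65 ribosomal protein genes had a median ratio of 1.18, with 45 of 65 above 1, beside 56.4% of all 266 genes. Of the 65, 2 were at least 2-fold higher and 1 at most 0.5-fold, beside 7.52% and 6.77% of all 266 genes. The median was 0.994 without the abundant RNAs and 0.677 with TMM factors from all genes, beside 0.880 and 0.599 over all 266 genes. Rpl10 gave 111 and 70 UMIs, a ratio of 2.48 (1.81 to 3.37), and Rpl41 gave 183 and 16, a ratio of 0.343 (0.192 to 0.573). Rpl41 was lower in the IR library in intercalated duct (0.521), Etv1-positive (0.597), acinar (0.601) and B-cells (0.571) as well. The RNA helicase gene Ddx5 and the nucleolar gene Npm1 had ratios of 2.95 (1.66 to 5.16) and 2.53 (1.37 to 4.59). Their log2 ratios of 1.56 and 1.34 were 0.68 and 0.16 at the 20% mitochondrial limit and 0.55 and 0.14 with the 0.5% limit on Klk1 and Fxyd2, under which Rpl10 went from 1.31 to 0.39. Malat1, an abundant nuclear RNA, gave 217 UMIs in 44 control cells and 125 in 9 IR cells, a ratio of 2.26. Above the mitochondrial limit the ratio was 0.519. Its level was 2649 (control) and 5992 CPM (IR) in the kept cells, and 33375 and 17321 CPM above the limit. The mitochondrial ribosomal RNA mt-Rnr1, which is among the RNAs the limit acts on, was 3.07.

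Several of the lowest ratios belonged to RNAs that other cells make, and Mt2, Gm42418 and Rpl41 ranked among them. The haemoglobin genes Hba-a1 and Hbb-bs gave 933 and 1476 UMIs in control and 7 and 16 in IR cells (ratios 0.0295 and 0.0426). Of these, 1 control cell held 864 and 1320. Without the top cell of each library their log2 ratios were -1.81 and -1.61. Above the mitochondrial limit their ratios were 5.89 and 10.3, where a single IR barcode held up to 69 and 199 UMIs. Cd74, the MHC class II chaperone, gave 60 and 4 UMIs, 48 of the 60 in 1 control cell. The parotid secretory RNA Smr3a was 37308 CPM in control and 14813 CPM in IR cells, a ratio of 0.397 (0.352 to 0.446), and it was lower in the IR library in intercalated duct cells (0.458), acinar cells (0.502) and B-cells (0.434) too. All 7 secretory RNAs of acini with 50 UMIs had ratios under 1 in the kept cells under each scaling. Of all 266 genes 116 were under 1 on CPM, 168 without the abundant RNAs and 233 with TMM factors from all genes. On CPM 2 of the 7, Smr3a and Car6, were at most 0.5-fold, beside 6.77% of all 266 genes. Secretory RNAs made up 22.7% of UMIs in control and 12.8% in IR striated duct cells, beside 9.90% and 9.21% in B-cells. Some barcodes of the B-cell class also met the rule of an epithelial class. The direction depended on the limits. Above the mitochondrial limit they summed to 65194 CPM (control) and 80867 CPM (IR), a ratio of 1.24 (1.20 to 1.28), and with the 0.5% limit on Klk1 and Fxyd2 the ratio was 1.65 (1.62 to 1.68) for the sum and 2.11 (2.07 to 2.16) for Bpifa2, which was 0.618 in the kept cells. How much of the secretory RNA is free RNA was not tested.

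Gm42418, Ifi27l2a and Mt2 were low outside those groups. The gene model Gm42418, which overlaps ribosomal RNA, gave 522 and 45 UMIs, a ratio of 0.339 (0.244 to 0.459), and stood at 0.528 in intercalated duct, 0.346 in Etv1-positive, 0.325 in acinar and 0.331 in B-cells. Ifi27l2a, an interferon-induced gene, was 2515 and 1055 CPM, a ratio of 0.419 (0.257 to 0.652), and 0.490 in intercalated duct and 0.360 in B-cells. The metallothionein gene Mt2, which binds zinc and copper, gave 48 and 4 UMIs, a ratio of 0.327 (0.086 to 0.894), whereas it was 1.28 (0.769 to 2.15) in intercalated duct cells. Mt1 was 2539 and 2445 CPM in striated duct cells (0.963, 0.694 to 1.31), but its ratio was 0.342 (0.237 to 0.483) above the mitochondrial limit and its log2 ratio -1.54 with the 0.5% limit on Klk1 and Fxyd2. In all, 10 antioxidant genes had a median ratio of 0.954. Fth1, the ferritin heavy chain, was 1.01 (0.798 to 1.28), with a log2 ratio of -1.11 under the 0.5% limit.

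The spread among striated duct cells is shown by their Klk1 level, as a description only: Klk1 helped to choose the cells, and the genes were picked after their values were seen, so that their order here supports nothing. Split at the median Klk1 share of their library, the upper cells (45 control, 11 IR) held 94860 and 80537 CPM of Klk1 and the lower cells (46 and 11) held 5788 and 7331 CPM, which is what the split used. Crisp3 stood at 10747 CPM in the upper and 1342 CPM in the lower control cells and at 35526 and 4853 CPM in the IR cells. Klk1b26, which shares sequence with Klk1, was 2632 and 308 CPM in control and 3848 and 516 CPM in IR cells. Wfdc2 was 2879 and 462 CPM in control cells, and 3758 and 1962 CPM in IR cells.

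Other picked genes were lower in the upper cells, apart from S100a1 in the IR cells. Fxyd2, whose share trades against that of Klk1 within the rule, was 13379 CPM in the upper and 19917 CPM in the lower control cells, and 11902 and 15798 CPM in IR cells. Tfcp2l1 was 192 and 726 CPM in control and 268 and 620 CPM in IR cells. Atp6v0d2 was 137 and 308 CPM in control cells, and 89.5 and 929 CPM in IR cells. The IR cells held 9 UMIs of Tfcp2l1 and 10 of Atp6v0d2 in all, so the order there rests on few molecules. The nuclear respiratory genes summed to 65798 and 83608 CPM in control and to 62640 and 74548 CPM in IR cells. S100a1 was 1480 and 2091 CPM in control cells, and 1700 and 1652 CPM in IR cells. The median depth was 688 UMIs in the upper and 757.5 UMIs in the lower control cells, and 664 and 837 UMIs in the IR cells. A high Klk1 level lowers the CPM of every other gene in the same cell, and the part of this in the values was not tested.

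The adhesion gene Epcam and the mucosal chemokine gene Cxcl17 stood higher in the cells with more Klk1. Epcam was 1069 and 154 CPM in control and 626 and 310 CPM in IR cells, and Cxcl17 was 768 and 110 CPM and 895 and 310 CPM. In IR cells this was 7 and 3 UMIs of Epcam and 10 and 3 of Cxcl17, so the order there rests on few molecules. Atp1b1 was 1426 and 330 CPM in control cells and 1342 and 1136 CPM in IR cells, where it rested on 26 UMIs. The immediate early genes summed to 8170 and 3169 CPM in control and to 13960 and 15385 CPM in IR cells.

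**Figure D5:**
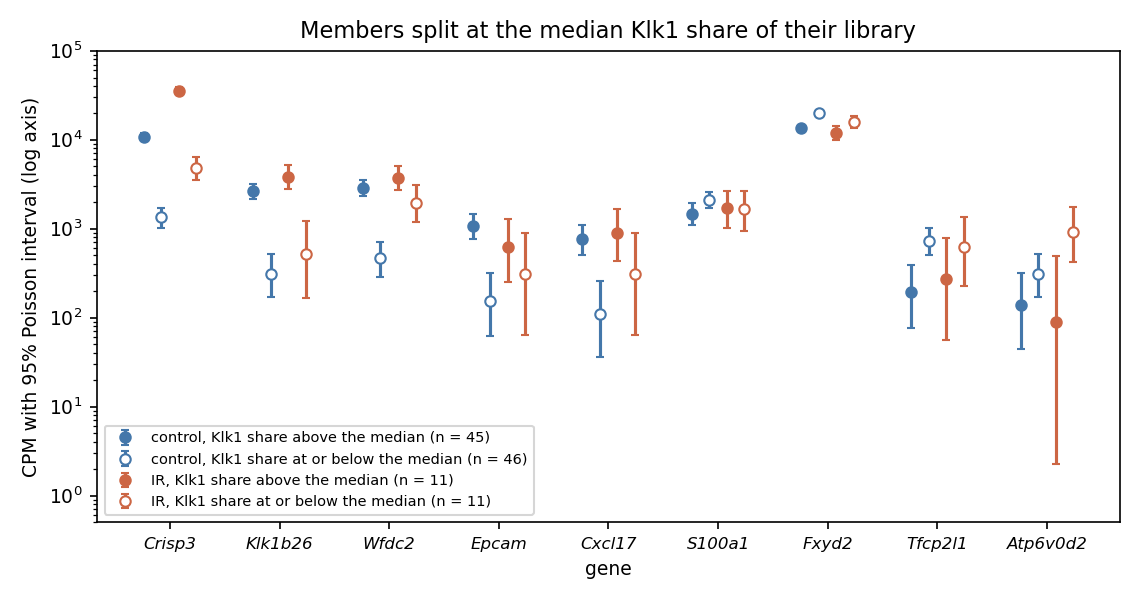
CPM (y axis, log) of 9 genes in striated duct cells split at the median Klk1 share of their library; filled points are cells above the median (45 control, 11 IR), open points cells at or below it (46 and 11), and bars are 95% Poisson intervals. The genes were picked after their values were seen, and Crisp3, Klk1b26, Wfdc2, Epcam and Cxcl17 lie higher in the filled points in both libraries, and Fxyd2, Tfcp2l1 and Atp6v0d2 lie higher in the open points.

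RNA of other cells was looked for in the striated duct cells with fixed marker lists. None of 9 endothelial markers gave a UMI, the 8 stromal markers gave only Vim (3 UMIs in 1 control cell and 7 in 1 IR cell), and basal and myoepithelial markers gave 6 and 5 UMIs in control and 1 and 1 in IR cells. The 16 T and NK cell markers summed to 183 CPM in control and 1103 CPM in IR cells, and 1 IR cell held 22 of the 23 IR UMIs. Of the B and plasma cell markers, Igkc was the most abundant with 18 and 3 UMIs, and of the macrophage markers Lyz2 with 11 and 1. Cells with clear RNA of another type numbered 2 in the control library (1 with haemoglobins, 1 with MHC class II and B-cell RNA) and 1 in the IR library. Leaving them out left Crisp3 and the immediate early genes at least 2-fold higher and took Cd74 to a log2 ratio of 0.11. Ionocyte and tuft cell markers summed to 366 and 959 CPM, led by Atp6v0d2, and 1 IR cell held 11 of the 20 IR UMIs. Without the top cell of each library the sums were 335 and 468 CPM.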

How the data were processed

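Both libraries were made by the submitters with 10x Chromium chemistry. The authors deposited raw UMI counts per gene and barcode, made with Cell Ranger 3.0.1 on mouse build mm10 (GRCm38), and Seurat 3 is also named in the submitters' processing notes. Counts of features that share a symbol were summed. The number of libraries limits each group to 1, so no test was made. Genes were compared by a CPM ratio of at least 2 or at most 0.5. Striated duct cells of both libraries together had to hold 50 UMIs of the gene or more. Intervals (95%) were exact: Clopper-Pearson for shares, Poisson for sums and conditional binomial for ratios. They were computed with numpy 2.4.6, scipy 1.17.1 and pandas 2.3.3. UMIs do not make cells of 1 library independent samples. Shares of cells with a UMI were taken after thinning each cell to 500 UMIs. TMM factors (0.757 control, 1.32 IR) came from edgeR 4.0.16 in R 4.3.3.

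The members and gene lists were chosen with earlier results of these data known. Named genes were the 10 highest and 10 lowest ratios, the 20 highest ratios over each other class, and the most abundant or 2-fold members of each list. Malat1 and the genes named in the split by Klk1 share were named after their values were seen. No barcode was removed as a doublet before the comparison. A score from simulated pairs of barcodes marked 203 control and 317 IR cells (6% of each library), 0 of them striated duct. In simulated counts of the same size, drawn with counting error alone, the rule called 100% of genes changed 4-fold up and 29.2% changed 2-fold up. It called 64.7% of genes changed to 0.5-fold, 88.9% changed to 0.25-fold and 3.30% of unchanged genes. The simulation held no spread between cells, which the data show, so its rates do not carry over to them. Some genes of the lists are not reported here. Alternatives are given in the closing section.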

Additional observations from a re-analysis of the deposited data

Results flagged for a closer look

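The groups below stood on opposite sides of 1 in striated and intercalated duct cells when IR was set against control. The difference between the cell classes was not tested, since each condition had 1 library. In Etv1-positive, acinar and B-cells the sums were 1.0, 1.35 and 1.26 for immediate early genes. They were 1.13, 1.31 and 1.06 for p53 and senescence, and 1.07, 1.12 and 0.683 for heat shock. For the mitochondrial genome they were 1.15, 1.72 and 1.27, for MHC class II 1.36, 1.40 and 0.971, and for secretory RNAs 0.937, 0.953 and 0.930.

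Immediate early genes summed to a ratio of 2.71 in striated and 0.827 in intercalated duct cells. In striated duct cells the sum was 0.886 at a 20% mitochondrial limit and 0.973 with none, the same side of 1 as the intercalated ducts. Within that list Atf3 was 3.10 and 0.807, Jun 2.95 and 0.524, Fos 2.44 and 0.392, and Junb 2.40 and 0.717. The p53 and senescence list summed to 2.24 and 0.630, and Btg2 in it was 2.59 and 0.50. At the 20% limit the striated duct values were 0.964 for that list and 0.661 for Btg2. Malat1 was 2.26 and 0.698, and 0.713 in striated duct cells at a 10% limit. Heat shock genes summed to 1.28 in striated and 0.725 in intercalated duct cells, and to 0.633 in striated duct cells at the 20% limit and 0.746 with Klk1 and Fxyd2 at 0.5% of UMIs.

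The mitochondrial genome summed to 1.32 and 0.938, within a limit that acts on these RNAs, and the striated duct ratio was 0.940 without the top cell of each library and 0.496 at a 10% limit. In the other direction, MHC class II genes summed to 0.236 in striated (0.829 without the top cell of each library, 0.748 at a 10% limit) and 1.38 in intercalated duct cells, and Cd74 alone to 0.262 and 1.39, with 48 of 60 control striated duct UMIs of Cd74 in 1 cell. Secretory RNAs of acini summed to 0.563 and 1.04, and in striated duct cells to 1.65 with the 0.5% limit on Klk1 and Fxyd2.

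Barcodes that met the Klk1 and Fxyd2 rule but were left out for mitochondrial RNA numbered 35 (control) and 33 (IR). Their median mitochondrial share was 30.3% and 14.1%.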

How the results depend on the processing

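Shares, counts and named genes were recomputed under the alternatives that apply to them. Those changing a denominator apply to shares alone, and other UMI or fold cuts to gene counts alone. Scalings and leaving out the deepest, mixed or top cells were not applied to shares. The share of striated duct cells was lower in the IR library under each alternative applied to it. With at least 500 genes per cell it was 0.816% (control) and 0.155% (IR). Over cells without Ptprc it was 5.38% and 1.09%, and over the 4 epithelial classes 11.5% and 3.11%. The IR share was 0.908% with Klk1 and Fxyd2 at 0.5% of UMIs, 0.659% at a mitochondrial limit of 20% and 0.770% with none.

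The number of genes at least 2-fold higher (20 of 266) was 13 of 307 at a 10% limit and 11 of 468 at 20%. It was 12 of 131 with at least 500 genes, 11 of 231 with Klk1 and Fxyd2 at 2% of UMIs and 12 of 319 with them at 0.5%. Without the deepest 10% of cells it was 7 of 210. Of the same 266 genes it was 11 without abundant RNAs, 1 with TMM factors and 7 without the top cell of each gene. It was 72 of 590 from 20 UMIs, 8 of 138 from 100 UMIs, 51 of 266 at 1.5-fold and 3 of 266 at 3-fold. The number of lower genes (18 of 266) was 113 of 319 with Klk1 and Fxyd2 at 0.5%, 11 of 210 without the deepest cells and 86 of 266 with TMM factors. It was 48 of 590 from 20 UMIs, 11 of 138 from 100 UMIs, 40 of 266 at 1.5-fold and 5 of 266 at 3-fold. Of 266 genes 190 (71.4%) were at least 2-fold higher over all 3 other classes in both libraries. This became 311 of 468 (66.5%) at a 20% limit and 379 of 591 (64.1%) with none. It was 90 of 131 (68.7%) with at least 500 genes and 101 of 248 (40.7%) without abundant RNAs.

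Of 900 log2 ratios (60 genes under 15 settings), 711 lay within the 95% interval of the main ratio. These include the setting without high doublet scores, which removed 0 striated duct cells and so repeats the main values. Opposite in sign to the main value were 164, in 39 genes, and 18 of these belonged to 10 genes past 2-fold. At a 20% limit and with none, Atf3 was -0.22 and -0.14, Jun -0.51 and -0.46, and Btg2 -0.60 and -0.41. At 10%, 20% and none, Fos was -0.0438, -0.76 and -0.55, and Malat1 -0.49, -0.44 and -0.56. Junb was -0.014 at 20%. With Klk1 and Fxyd2 at 0.5%, Krt18 was -0.42, Cox7a2l -0.33 and Mdh2 -0.29. Cd74 was 0.10 without the deepest cells and 0.11 without the 3 mixed cells. Among genes past 2-fold outside the 60, mt-Nd2 turned from 1.26 to -0.53 at a 10% limit. With Klk1 and Fxyd2 at 0.5%, Dstn turned from 1.04 to -0.17, Dcpp1 from -1.11 to 2.37 and BC037156 from -1.23 to 1.03. The cause was not tested.

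The settings without mixed cells, without the top cell of each gene, with abundant RNAs left out of the class comparison, with TMM factors from the 266 genes, with Klk1 and Fxyd2 at 0.5% and with epithelial cells as denominator were chosen after seeing the data. No paired analysis was possible because each group was 1 library. The 22 IR cells and 20860 UMIs limit what could be seen of genes below about 50 UMIs.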
